A study of Drosophila melanogaster and Drosophila yakuba and Drosophila virilis with 31 samples.

Results

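A set of 159 genes, out of 5993 with a single ortholog in each of 4 Drosophila species, had a mean in blastoderm embryos of D. virilis (vir) several times above that in embryos of the other species, D. melanogaster (mel), D. yakuba (yak) and D. pseudoobscura (pse). Members were chosen by their embryo levels: the mean over vir embryos was at least 10 FPKM and at least 4 times the highest mean in mel, yak or pse embryos. FPKM, fragments per kilobase of transcript and per sequencing depth, is a level corrected for transcript length and library size. Members made up 2.65% of the table, and the same rule applied to the other species gave 52 genes for mel, 49 for yak and 99 for pse. Since embryo levels chose the members, all embryo levels given here are descriptions and were not tested between species. The samples were vir embryos (strain V46, 3 females and 2 males kept) and eggs (2). They were compared with mel embryos (Oregon-R, 3 females and 3 males) and eggs (2), yak embryos (Tai18E2, 3 females and 3 males) and eggs (2), and pse embryos (MV2-25, 2 females and 3 males) and eggs (1). Each library held 1 whole embryo, sexed by PCR, that had finished cellularization and not begun gastrulation, or 1 unfertilized egg. The embryos came from many females. None of the groups received a treatment. The authors mapped each species to its own annotation, so that differences between annotations and between species cannot be told apart. In whole embryos, fewer cells with a transcript and less RNA per cell cannot be told apart either.

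Early fly development runs on RNA and protein that the mother loads into the egg. The maternal RNAs are then cleared, at different speeds for different genes, while the embryo's own genome is switched on, and the end of the blastoderm stage falls in the middle of this handover. A high level in an embryo can therefore consist of maternal RNA that has not been cleared, of new transcripts, or of both, and an unfertilized egg of the same species shows what the mother supplied.

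The libraries were checked against lists of marker genes. The summed level of 19 blastoderm markers (such as eve, ftz and Kr) was between 1246 and 1430.2 FPKM in vir embryos, 1416 and 1681 FPKM in mel embryos, 1009.5 and 1315 FPKM in yak embryos and 1096 and 1426 FPKM in pse embryos. The marker slam is a member, and without it the sum was between 989 and 1167 FPKM in vir, 1399 and 1636 FPKM in mel, 969 and 1249 FPKM in yak and 1051 and 1348 FPKM in pse. On these 18 genes vir lay below mel and overlapped yak and pse. Germ plasm markers (6 genes) summed to between 312 and 358 FPKM in vir embryos, below the range of 459 to 851 FPKM over embryos of the other species. Markers of later embryos (8 genes) overlapped between vir (158 to 209.8 FPKM) and the other species (155 to 300.2 FPKM), and the 2 eggshell and yolk genes in the table, Cp18 and Yp3, summed to between 1.81 and 8.06 FPKM in vir and at most 3.14 FPKM in the others. The part of these marker levels in the results below was not tested. The members took up between 3.07% and 3.2% of all FPKM in vir embryos and between 0.185% and 0.271% in embryos of the other species. In eggs their share was 2.73% and 2.74% in vir and between 1.36% and 1.82% in the other species. The embryo shares follow from the rule, and the egg shares do not enter it.

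**Figure D1:**
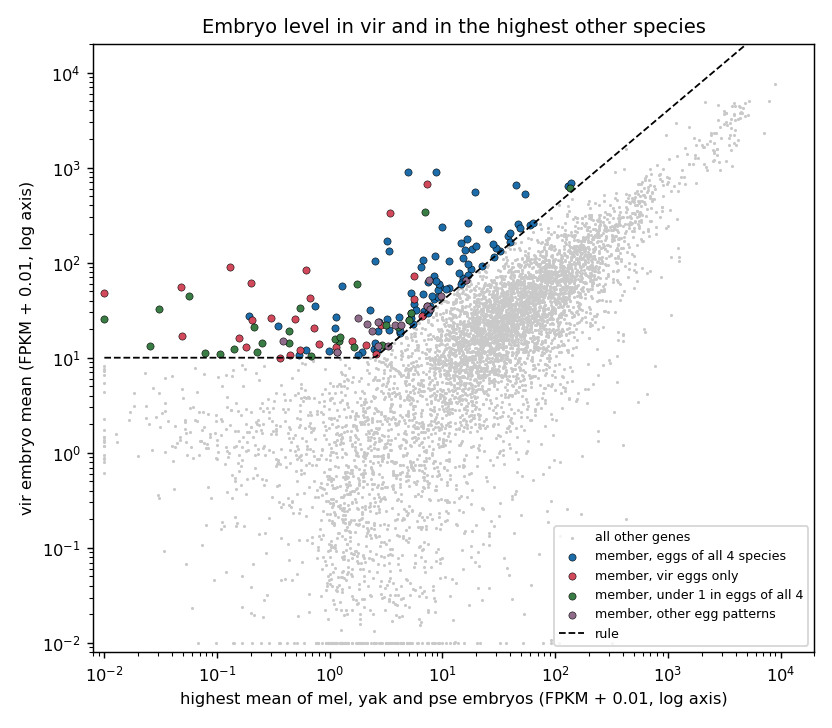
Mean level in vir embryos (vertical, FPKM + 0.01, log axis) against the highest mean of mel, yak and pse embryos (horizontal, FPKM + 0.01, log axis), 1 point per gene. Grey points are other genes, coloured points are the 159 members by their pattern in eggs, and the dashed line is the rule; members reach from 10.02 to 905 FPKM in vir.

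Among the members the mean vir embryo level ranged from 10.02 to 905 FPKM, with a median of 32.8 FPKM. The median over the same genes was 2.54 FPKM in mel, 1.49 FPKM in yak and 2.2 FPKM in pse embryos. In vir 63 members reached 50 FPKM and 37 reached 100 FPKM. The ratio to the highest other species had a median of 8.42 and was at least 10 for 69 members, at least 20 for 47 and at least 100 for 18. The highest other level was in mel for 57 members, in yak for 41 and in pse for 59. The remaining 2 members, CG31345 and CG7031, were listed at 0 (values under 1e-09) in all 22 mel, yak and pse libraries. At 24 members every one of these 22 libraries was under 1 FPKM. Just inside the ratio of the rule were bru (29.5 FPKM in vir, ratio 4.002), CG3065 (114 FPKM, 4.01) and CG9153 (30.9 FPKM, 4.07). Just outside it were Fur2 (21.5 FPKM, 3.99), CG5871 (81.1 FPKM, 3.98) and CG13120 (25.3 FPKM, 3.98).

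The 5 vir embryos were close to each other for most members. The highest vir embryo was within 2-fold of the lowest for 144 members, with a median of 1.36-fold, against 1.3-fold over the 3475 genes at 10 FPKM or more in vir embryos. Every vir embryo lay above every mel, yak and pse embryo for 156 members (18.2% of all genes did so), a pattern that the rule itself favours. Only 5 members were spread more than 4-fold over vir embryos, namely CG14219, CG14696, CG18568, CG15213 and Dcr-2, the last of which encodes the Dicer that makes small interfering RNAs. For CG14219, an X-linked gene, the values were 0.606, 19.3 and 53.1 in vir females and 0.262 and 0.907 FPKM in vir males, so that its place in the set rested on females 2 and 3. Dcr-2 had 20.6, 69.4 and 95.4 in vir females and 26.3 and 30.1 FPKM in vir males, again highest in females 2 and 3. The same order was seen for CG14696 (3.68, 22.3 and 39.8 in vir females and 3.93 and 8.68 FPKM in vir males) and for CG18568 (3.73, 20.6 and 31.8 in vir females and 4.88 and 6.37 FPKM in vir males). CG15213 was highest in female 2 and lowest in male 3, with 22.8, 30.2 and 9.11 in vir females and 14.9 and 5.8 FPKM in vir males.

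A further vir male, left out by the study for low data quality and not used by the rule, gave a reading of the members in another embryo. In it 125 members (78.6%) were at 10 FPKM or more and at least 4 times the highest mean of the other species, as were 2.87% of all genes. Of the other 34 members, 18 were under 10 FPKM and 16 missed the ratio only. Its level was above all 17 mel, yak and pse embryos for 157 members (98.7%), against 23.9% of all genes, and within 2-fold of the mean of the other vir embryos for 148 members. The mel, yak and pse embryos in these counts are those that the rule used, which by itself favours the members over all genes. CG14219 was at 0.42 FPKM in this male.

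Eggs did not enter the rule, and were compared to ask whether the members were already higher in vir in what the mother supplied. Of 159 members, 98 (61.6%) were higher in vir eggs than in the mean of mel, yak and pse eggs, against 27.3% of the 5983 genes tested (limma on log2(FPKM + 1), adjusted p under 0.05). In turn 12 members (7.55%) were lower, against 31.4% of genes. Differences are given with their SE. Among the 3475 genes at 10 FPKM or more in vir embryos, the level that every member has by rule, 36.7% were higher and 28.7% lower in vir eggs. All 159 members passed the filter for this test through their vir embryos, and 133 of them were also at 1 FPKM or more in the eggs of a species. The median difference over members was 0.89 on the log2 scale, against 0 over all genes tested. Against single species, 98 members were higher than in mel eggs (24.8% of all genes were), 97 than in yak eggs (26.9%) and 82 than in the single pse egg (22.2%). All 3 comparisons were passed by 69 members, against 12.4% of genes. With medians in place of 75th percentiles for normalization, 122 members were higher and 8 lower. Over all genes 2630 were higher and 1187 lower in vir eggs under this scaling, against 1634 and 1877 with the 75th percentile. Both vir eggs lay above all 5 other eggs for 98 members and below all of them for 8, against 23.8% and 22.8% of genes. The rule itself, applied to egg means, picked 70 genes, and 24 of them were members (34.3% of these genes and 15.1% of members). The p-values rest on a spread between single libraries that is shared by the egg and embryo groups of 1 fit, so that most of it comes from embryos. There were 2 eggs in vir and 1 in pse.

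**Figure D2:**
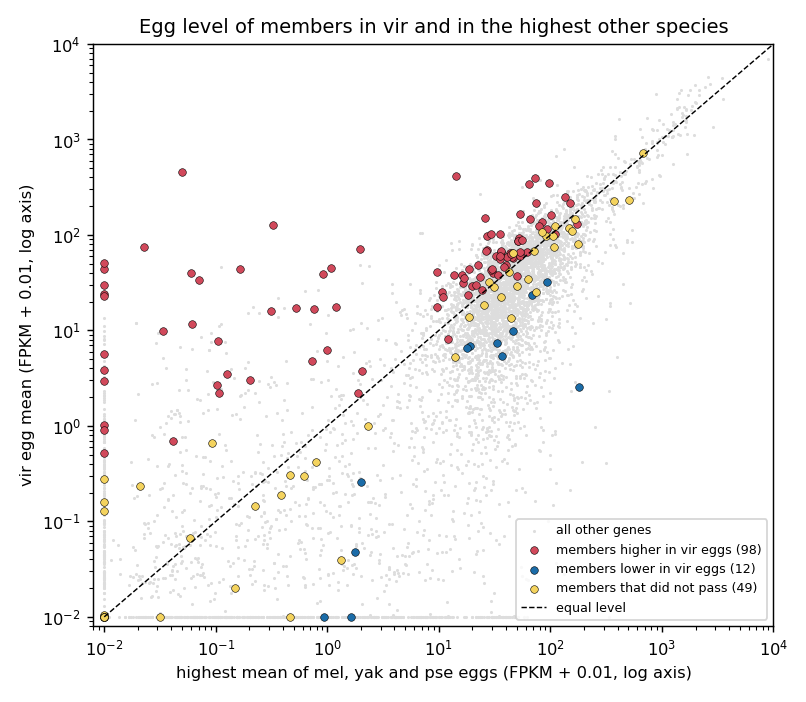
Mean level in vir eggs (vertical, FPKM + 0.01, log axis) against the highest mean of mel, yak and pse eggs (horizontal, FPKM + 0.01, log axis), 1 point per gene, with members coloured by the limma call of the egg difference. Of the 98 members that were higher in vir eggs, 58 are at 1 FPKM or more in eggs of all species and 28 lie at the left with under 1 FPKM in the other eggs.

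With 1 FPKM taken as present in an egg, a limit chosen after the values were known, the members fell into groups by egg pattern. A majority, 90 members (56.6%), were present in eggs of all 4 species, as were 66.5% of all genes. Another 28 (17.6%) were present in vir eggs only, against 2.47% of all genes. A further 26 (16.4%) were under 1 FPKM in eggs of all 4 species, against 18.5% of genes, and 15 had other patterns. Median vir embryo levels were 59.8 FPKM for the first of these groups, 25.1 FPKM for the group in vir eggs only and 17.8 FPKM for the group absent from eggs.

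**Figure D3:**
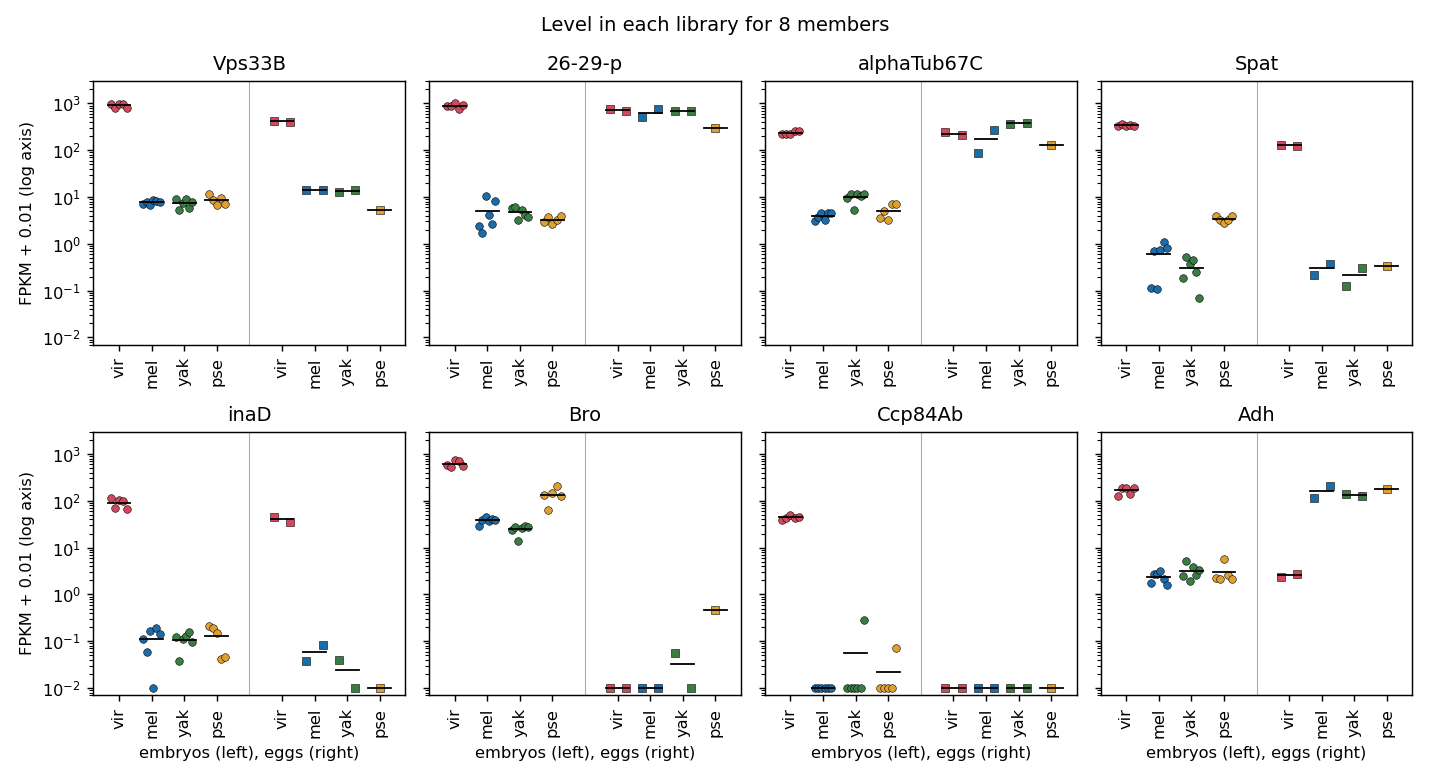
Level of 8 members (FPKM + 0.01, log axis) in each library, embryos on the left of each panel and eggs on the right, with vir, mel, yak and pse in this order and a bar at the mean. Vps33B, 26-29-p and alphaTub67C were at 1 FPKM or more in all eggs, Spat and inaD in vir eggs only, Bro and Ccp84Ab in no egg, and Adh was low in vir eggs and high in vir embryos.

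The 90 members found in eggs of all species are described by their levels in embryos, which chose them, and in eggs. Median embryo levels were 59.8 FPKM in vir, against 5.37 FPKM in mel, 4.68 FPKM in yak and 5.5 FPKM in pse. Median egg levels were 63.4 FPKM in vir, against 31.1 FPKM in mel, 32.5 FPKM in yak and 32.6 FPKM in pse. In eggs 58 of them were higher in vir and 8 lower, against 32.5% and 34.9% of all genes present in eggs of all species. The median ratio of embryo to egg level was 1.25 in vir, against 0.199 in mel, 0.149 in yak and 0.173 in pse. Over all 3986 genes with the same egg pattern these medians were 1.05 in vir, 0.888 in mel, 0.899 in yak and 0.878 in pse. In vir 75 of the 90 had an embryo level above 50% of their egg level, against 18 in mel, 23 in yak and 16 in pse. Over all genes with this egg pattern the share was 73.8% in vir, against 68.0% in mel, 67.4% in yak and 66.4% in pse. These ratios contain the embryo levels that chose the members and are a description. Eggs and embryos were scaled to the same 75th percentile. All ratios of embryo to egg given here thus compare relative levels and do not measure the amount of RNA kept or gained. The largest ratio between species in embryos among the 90 was that of 26-29-p, a cathepsin-type cysteine protease. Embryos had 1011, 765 and 908 in vir females and 879 and 885 FPKM in vir males. The lowest, median and highest embryos of the other species had 1.73, 3.38 and 10.7 in mel, 3.21, 4.77 and 6.14 in yak and 2.61, 3.22 and 3.87 FPKM in pse, which gives a 180.1-fold ratio of means. Its eggs overlapped between species, with 765 and 689.7 FPKM in vir eggs, against 516 and 743 in mel eggs, 681 and 672 in yak eggs and 295 FPKM in the pse egg (log2 difference 0.54 ± 0.38, limma adjusted p = 0.245). The ratio of embryo to egg was 1.22 in vir, against 0.00784 in mel, 0.00705 in yak and 0.0111 in pse.

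Similar values were found for alphaTub67C, the maternal alpha-tubulin of the oocyte and early embryo. It had 216, 253 and 259 in vir females and 222 and 223 FPKM in vir males, against 3.13, 4.12 and 4.59 in mel, 5.18, 11 and 11.6 in yak and 3.25, 4.9 and 6.98 FPKM in pse (lowest, median and highest embryo). It had 244 and 207 FPKM in vir eggs, against 86.8 and 265 in mel eggs, 369.5 and 376 in yak eggs and 129 FPKM in the pse egg (log2 difference 0.21 ± 0.28, limma adjusted p = 0.586). Vha100-2, a subunit of the proton pump that acidifies lysosomes, averaged 116 ± 12.9 FPKM (SD, n = 5) in vir embryos, against 1.73 in mel, 8.52 in yak and 5.4 FPKM in pse. It had 105 and 115 FPKM in vir eggs, against 68 to 165 FPKM in the other eggs (log2 difference -0.20 ± 0.32, limma adjusted p = 0.662). ltd, a Rab GTPase of lysosome-related organelles such as eye pigment granules, averaged 90.8 ± 12.4 FPKM (SD, n = 5) in vir embryos, against 0.551 in mel, 1.04 in yak and 6.5 FPKM in pse. Its eggs had 107 FPKM in vir, against 79.4 in mel, 83.4 in yak and 67.5 FPKM in pse (log2 difference 0.49 ± 0.25, limma adjusted p = 0.105). For egl, which links localized mRNAs to the dynein motor, embryos averaged 14.4 ± 1.33 FPKM (SD, n = 5) in vir, against 0.527 in mel, 0.478 in yak and 2.53 FPKM in pse. Its vir eggs (34.9 FPKM) lay among the others (29.1 to 63.2 FPKM, log2 difference -0.18 ± 0.13, limma adjusted p = 0.244). None of these 5 genes, chosen after their values were seen, passed the egg test.

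In other members of this group vir was higher in eggs too. Prestin, an anion transporter, averaged 34.6 ± 1.41 FPKM (SD, n = 5) in vir embryos, against 0.30 in mel, 0.277 in yak and 0.724 FPKM in pse. Its eggs had 66.4 FPKM in vir, against 38.4 in mel, 53.1 in yak and 25 FPKM in pse (log2 difference 0.82 ± 0.20, limma adjusted p = 0.0011). CG6287, the phosphoglycerate dehydrogenase of serine synthesis, averaged 56.7 ± 5.53 FPKM (SD, n = 5) in vir embryos, against 1.28 in mel, 0.18 in yak and 0.319 FPKM in pse. Its eggs had 137 FPKM in vir, against 79.1 in mel, 57.2 in yak and 84.7 FPKM in pse (log2 difference 0.91 ± 0.23, limma adjusted p = 0.00193). The vir embryo level was 0.522 of the egg level for Prestin and 0.414 for CG6287, and for these genes it was at most 0.0289 in the other species. LpR2, a lipophorin receptor that takes up lipid into oocytes, was also higher in vir eggs (log2 difference 1.12 ± 0.21, limma adjusted p = 7.9e-05). So was spin, a late endosomal and lysosomal permease (log2 difference 0.93 ± 0.15, limma adjusted p = 8.2e-06). CG3902, an acyl-CoA dehydrogenase, averaged 10.8 ± 3.3 FPKM (SD, n = 5) in vir embryos, against 0.28 in mel, 0.379 in yak and 0.523 FPKM in pse. It had 147 and 147 FPKM in vir eggs, against 6.16 and 47.1 in mel eggs, 0.000528 and 22.3 in yak eggs and 66.1 FPKM in the pse egg. The mel and yak eggs thus differed widely between replicates. Got2, the mitochondrial aspartate aminotransferase, averaged 12.1 ± 1.77 FPKM (SD, n = 5) in vir embryos, against 0.793 in mel, 1.49 in yak and 2.62 FPKM in pse. It had 91.3 and 114 FPKM in vir eggs, against 18.7 and 63.3 in mel eggs, 62.3 and 54.7 in yak eggs and 109 FPKM in the pse egg, which lay between the vir eggs (log2 difference 0.74 ± 0.28, limma adjusted p = 0.025).

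Vps33B had the highest mean of all members. It encodes a Sec1/Munc18-type protein that acts in vesicle fusion. It had 966, 969 and 804 in vir females and 981 and 803 FPKM in vir males, against 6.75, 7.74 and 8.53 in mel, 5.17, 7.62 and 9.22 in yak and 6.82, 8.78 and 11.7 FPKM in pse (lowest, median and highest embryo). The ratio of means was 103. It had 420.1 and 402 FPKM in vir eggs, against 14 and 14.3 in mel eggs, 12.6 and 14.2 in yak eggs and 5.35 FPKM in the pse egg (log2 difference 5.21 ± 0.19, limma adjusted p = 4.1e-16). Unlike 26-29-p, Vps33B was apart between species in eggs and embryos alike. Its span overlaps that of another gene of the table in vir but not in mel, and the part of this overlap in its level was not tested. Its mean in vir embryos was 2.2 times that in vir eggs. CG5508 (mino), an acyltransferase of the first step of glycerolipid synthesis, averaged 655 ± 23 FPKM (SD, n = 5) in vir embryos, against 45.3 in mel, 7.48 in yak and 13.2 FPKM in pse. Its eggs had 390.5 FPKM in vir, against 72.4 in mel, 62 in yak and 43.3 FPKM in pse (log2 difference 2.72 ± 0.17, limma adjusted p = 4.9e-12). CG9849 averaged 555 ± 49.5 FPKM (SD, n = 5) in vir embryos, against 13.7 in mel, 19.4 in yak and 16.4 FPKM in pse. In eggs its log2 difference was 2.83 ± 0.15 (limma adjusted p = 3.4e-13). The spans of CG5508 and CG9849 each overlap that of another gene of the table in both mel and vir. Reads of these overlaps may not be told apart. plu, which controls DNA replication in the first embryonic cycles of mel, averaged 635 ± 74 FPKM (SD, n = 5) in vir embryos, against 24.3 in mel, 10.4 in yak and 130.1 FPKM in pse. It was higher in vir eggs (log2 difference 2.51 ± 0.38, limma adjusted p = 5.5e-06). Gdi, which extracts Rab GTPases from membranes, averaged 534 ± 37.5 FPKM (SD, n = 5) in vir embryos, against 30.9 in mel, 54.5 in yak and 42.5 FPKM in pse. In eggs its log2 difference was 1.54 ± 0.25 (limma adjusted p = 1.6e-05). rin, an RNA-binding protein of stress granules, stood closer to the other species, with 696 ± 20.3 FPKM (SD, n = 5) in vir, against 102 in mel, 133 in yak and 139 FPKM in pse. In eggs its log2 difference was 0.73 ± 0.17 (limma adjusted p = 8.2e-04).

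**Figure D4:**
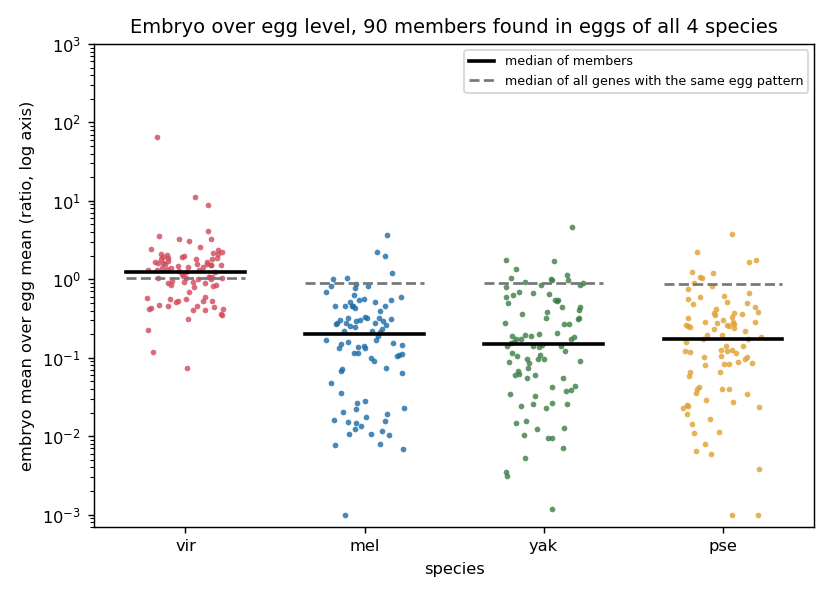
Embryo mean over egg mean (vertical, log axis) for the 90 members present in eggs of all 4 species, 1 point per gene and species, with ratios under 0.001 drawn at 0.001. Solid bars are medians of members (1.25 in vir, against 0.199 in mel, 0.149 in yak and 0.173 in pse), and dashed bars are medians of all genes with the same egg pattern.

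The 28 members present in vir eggs only all passed the egg test, in a group that requires a higher vir egg. Largest was CG12947, with 437 and 475 FPKM in vir eggs, against 0 to 0.0723 FPKM in the other eggs (log2 difference 8.80 ± 0.18, limma adjusted p = 1.0e-19). Its embryos had 687, 739 and 570.0 in vir females and 813 and 588 FPKM in vir males, against 4.78, 7.62 and 9.57 in mel, 0, 0.202 and 0.504 in yak and 0.142, 0.203 and 0.424 FPKM in pse (lowest, median and highest). In mel, where an earlier study classed it as zygotic, CG12947 was near 0 in eggs and between 4.78 and 9.57 FPKM in embryos.

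Spat, an aminotransferase of glyoxylate and serine metabolism, had 132 and 124 FPKM in vir eggs, against 0.21 and 0.364 in mel eggs, 0.116 and 0.298 in yak eggs and 0.319 FPKM in the pse egg (log2 difference 6.67 ± 0.18, limma adjusted p = 1.8e-18). The embryos followed, with 324, 349.6 and 328 in vir females and 328 and 357 FPKM in vir males, against 0.0585 to 3.97 FPKM over all mel, yak and pse embryos. The libraries of vir and of the other species did not overlap. inaD, the scaffold that holds the phototransduction proteins of the adult eye together, had 45.3 and 34.9 FPKM in vir eggs, against 0.0284 and 0.072 in mel eggs, 0.0289 and 0 in yak eggs and 0 FPKM in the pse egg (log2 difference 5.32 ± 0.17, limma adjusted p = 6.0e-17). Its vir embryos had 102, 100.1 and 65.4 in vir females and 115 and 69.4 FPKM in vir males, against at most 0.205 FPKM in any other embryo. The level listed for this photoreceptor gene in vir eggs and whole blastoderm embryos was thus above the median gene. The median gene was at 15.6 FPKM in vir eggs and 15.4 FPKM in vir embryos. The span of inaD overlaps that of another gene of the table in both mel and vir, so that reads of the overlap may not be told apart. Eaat1, a glutamate transporter of glia, had 21 and 24.8 FPKM in vir eggs and was listed at 0 in all 5 other eggs (limma adjusted p = 1.8e-18). Its embryos averaged 61.9 ± 2.6 FPKM (SD, n = 5) in vir, against 0.169 in mel, 0.19 in yak and 0.104 FPKM in pse. star1, a receptor of the neuropeptide allatostatin C, and Mmp1, a matrix metalloproteinase, were listed at 0 in all 5 other eggs as well. Vir eggs had 29.2 and 30.4 FPKM of star1, and 29.7 and 58.3 FPKM of Mmp1. Both were lower in vir embryos than in vir eggs, at 16 FPKM and 10.6 FPKM.

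salt was listed at 0 in all 5 other eggs and had 48.3 and 53.3 FPKM in vir eggs. Its vir embryos averaged 84.2 ± 4.42 FPKM (SD, n = 5), against 0.228 in mel, 0.263 in yak and 0.606 FPKM in pse. Cyp6d2, a cytochrome P450, had 45 and 43.6 FPKM in vir eggs, against 0 to 0.154 FPKM in the other eggs (log2 difference 5.43 ± 0.12, limma adjusted p = 1.7e-19). It averaged 26.2 ± 3.48 FPKM (SD, n = 5) in vir embryos, against 0.00698 in mel, 0.00712 in yak and 0.289 FPKM in pse. CG31530 was lower in vir embryos than in vir eggs, with 12.8 ± 5.07 FPKM (SD, n = 5) in vir embryos, against 0.0951 in mel, 1.12 in yak and 0 FPKM in pse. It had 68.4 and 79.7 FPKM in vir eggs, against 0 to 0.0255 FPKM in the other eggs (log2 difference 6.22 ± 0.25, limma adjusted p = 2.9e-15). Nha2, a sodium/proton exchanger, and CG4927 showed ratios of 437 and 1475 in embryos, but each of these rests on means under 0.05 FPKM in the other species. CG31345, listed at 0 in every mel, yak and pse library, had 43.1, 49.7 and 36.2 in vir females and 57.3 and 50.9 FPKM in vir males, and 3.65 and 2.17 FPKM in vir eggs. CG42525, in the group of other patterns, had 77 and 64.9 FPKM in vir eggs, against 0 and 0 in mel eggs, 0.125 and 0.212 in yak eggs and 1.95 FPKM in the pse egg (log2 difference 5.57 ± 0.31, limma adjusted p = 7.2e-13). Fitted differences against eggs at or near 0 depend on the 1 FPKM added before the logarithm and are no estimate of a fold change.

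The 26 members under 1 FPKM in eggs of all species have no egg level to carry over. The vir classes that the authors predicted from these libraries put all 26 as zygotic. In the egg test 3 of them (CG30471, CG5493 and IFa) were higher and 1 (Sclp) lower in vir, all with means under 1 FPKM. Bro, the CBF-beta type partner that strengthens DNA binding by Runt-type transcription factors, had the highest vir mean among them. It had 732, 705 and 547 in vir females and 575 and 519 FPKM in vir males, against 28.7, 38.4 and 45 in mel, 13.6, 26.9 and 28.5 in yak and 62.4, 134 and 203 FPKM in pse (lowest, median and highest embryo). Both vir eggs were listed at 0, and the other eggs had 0 to 0.455 FPKM (log2 difference -0.19 ± 0.27, limma adjusted p = 0.605). Bro was thus above 10 FPKM in embryos of all species, and the vir embryos did not overlap with the others. ImpL1, known in mel as a gene induced by the steroid hormone ecdysone in imaginal discs, had 352, 324 and 391 in vir females and 254 and 377 FPKM in vir males, against 0.954, 1.24 and 1.7 in mel, 4.94, 6.22 and 11.1 in yak and 0.147, 0.671 and 1.71 FPKM in pse. No egg was above 0.0429 FPKM. Ccp84Ab, a cuticle protein gene of the Antennapedia complex region, had 50.1, 43.8 and 45.5 in vir females and 39.1 and 42.9 FPKM in vir males, while mel embryos were all listed at 0 and no yak or pse embryo exceeded 0.276 FPKM. Vkor, the vitamin K epoxide reductase, averaged 33.3 ± 2.52 FPKM (SD, n = 5) in vir embryos, against 0.535 in mel, 0 in yak and 0.117 FPKM in pse.

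IFa, the gene of the neuropeptide SIFamide, averaged 59.6 ± 15.8 FPKM (SD, n = 5) in vir embryos, against 1.75 in mel, 0.134 in yak and 0 FPKM in pse. Of the 2 vir eggs, 1 had 1.78 FPKM while every other egg was listed at 0. Its egg call (log2 difference 0.74 ± 0.32, limma adjusted p = 0.0498) rested on that egg: without vir egg 2 the difference was 0 (limma adjusted p = 1). FBgn0030828 and CG7031 were at 0 or near it outside vir embryos. FBgn0030828 had 35.6, 44 and 30.3 in vir females and 30.3 and 23.6 FPKM in vir males. CG7031 had 24, 23.3 and 22.6 in vir females and 30.8 and 26.4 FPKM in vir males. CG15096 averaged 13.3 ± 3.59 FPKM (SD, n = 5) in vir embryos and at most 0.0152 FPKM in another species. Csas, which makes the activated form of sialic acid, averaged 19 ± 5.71 FPKM (SD, n = 5) in vir embryos, against 0.0216 in mel, 0.0284 in yak and 0.428 FPKM in pse. klg, an immunoglobulin-type adhesion protein, averaged 22 ± 3.41 FPKM (SD, n = 5) in vir embryos, against 3.17 in mel, 0.644 in yak and 0.148 FPKM in pse. Ror, a receptor tyrosine kinase, averaged 12.9 ± 2.57 FPKM (SD, n = 5) in vir embryos, against 1.62 in mel, 1.27 in yak and 1.65 FPKM in pse. In the group of other egg patterns, ppk19, a sodium channel subunit of the ENaC family, and Dad, the inhibitory Smad of Dpp signalling, were lower in vir eggs. For ppk19 the log2 difference was -1.02 ± 0.22 (limma adjusted p = 3.0e-04). All eggs were low, with 0.0297 and 0.0461 FPKM of ppk19 in vir eggs and 0.371 to 2.33 FPKM in the others. With 10 FPKM added before the logarithm the difference was -0.16 and did not pass (limma adjusted p = 0.129). For Dad both vir eggs were listed at 0, as were both yak eggs, against 1.13 and 0.375 FPKM in mel eggs and 1.62 FPKM in the pse egg. Dad averaged 22.4 ± 3.81 FPKM (SD, n = 5) in vir embryos, against 0.764 in mel, 1.6 in yak and 2.13 FPKM in pse.

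Of the 12 members that were lower in vir eggs, Adh had the largest difference. It encodes alcohol dehydrogenase. Its span overlaps that of another gene of the table in both mel and vir, so that reads of the overlap may not be told apart. Embryos had 189.5, 141 and 185 in vir females and 128 and 192 FPKM in vir males, against 1.62, 2.44 and 3.2 in mel, 1.93, 2.99 and 5.16 in yak and 2.13, 2.2 and 5.63 FPKM in pse (lowest, median and highest). Eggs were the other way round, with 2.32 and 2.76 FPKM in vir eggs, against 116 and 208 in mel eggs, 141 and 129 in yak eggs and 179 FPKM in the pse egg (log2 difference -5.47 ± 0.31, limma adjusted p = 6.5e-13). The embryo was 65.9 times the egg in vir, against 0.0146 in mel, 0.024 in yak and 0.0165 in pse. CG10866, cdi (a protein kinase gene) and Dip-B (a dipeptidase) were also lower in vir eggs. The egg difference of CG10866 was -1.75 ± 0.24 (limma adjusted p = 1.8e-06). That of cdi was -1.67 ± 0.19 (limma adjusted p = 1.1e-07). That of Dip-B was -1.32 ± 0.20 (limma adjusted p = 4.9e-06). Dip-B averaged 59.6 ± 2.68 FPKM (SD, n = 5) in vir embryos, against 5.43 in mel, 10.2 in yak and 14.5 FPKM in pse. It had 37.6 and 27.4 FPKM in vir eggs, against 54.1 and 99.1 in mel eggs, 96.1 and 91.8 in yak eggs and 78.7 FPKM in the pse egg. For cdi vir embryos averaged 18.1 ± 2.64 FPKM (SD, n = 5), above vir eggs at 9.81 FPKM. For CG10866 they averaged 23.7 ± 2.71 FPKM (SD, n = 5), above vir eggs at 7.37 FPKM. In mel, yak and pse both genes were lower in embryos than in eggs.

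Members were also grouped by role after their values were known, so that the counts are a description. They stand against 27.3% of all genes higher and 31.4% lower in vir eggs, and 61.6% and 7.55% of all members, with 66.5% of genes present in eggs of all species and 2.47% in vir eggs only. Over all members these egg patterns made up 56.6% and 17.6%. By role, 13 members act in membrane traffic or the lysosome. All 13 were present in eggs of all species, 6 were higher in vir eggs and 0 lower. They included Vps33B, Gdi, ltd, spin, Vha100-2, 26-29-p and Lerp, a receptor for lysosomal enzymes. membrin, a Golgi SNARE, averaged 161 ± 10.2 FPKM (SD, n = 5) in vir embryos, against 10.4 in mel, 6.44 in yak and 14.5 FPKM in pse. AP-1sigma, a clathrin adaptor subunit, averaged 191 ± 37.2 FPKM (SD, n = 5) in vir embryos, against 14.9 in mel, 20.8 in yak and 38 FPKM in pse. membrin was higher in vir eggs (log2 difference 1.75 ± 0.21, limma adjusted p = 1.8e-07). AP-1sigma was not called (log2 difference 0.24 ± 0.16, limma adjusted p = 0.22). Of 16 members that act in metabolism or mitochondria, 11 were higher in vir eggs and 1, Adh, was lower, against 27.3% and 31.4% of all genes. The shares over all members were 61.6% and 7.55%. Gs1, a glutamine synthetase, averaged 255 ± 17.7 FPKM (SD, n = 5) in vir embryos, against 46.8 in mel, 14.9 in yak and 19.8 FPKM in pse. In eggs its log2 difference was 0.28 ± 0.29 (limma adjusted p = 0.463). l(1)G0334, the alpha subunit of pyruvate dehydrogenase, averaged 179 ± 13.2 FPKM (SD, n = 5) in vir, against 9.63 in mel, 16.5 in yak and 6.15 FPKM in pse. It had 76.5 and 73.1 FPKM in vir eggs, against 43.4 to 121 FPKM in the other eggs. Tim8, a chaperone of mitochondrial protein import, averaged 264 ± 38.1 FPKM (SD, n = 5) in vir, against 21.6 in mel, 31.4 in yak and 64.2 FPKM in pse. In eggs its log2 difference was 0.33 ± 0.19 (limma adjusted p = 0.152). mRpS25, a protein of the small mitochondrial ribosomal subunit, averaged 150.4 ± 25.9 FPKM (SD, n = 5) in vir, against 19.8 in mel, 11.5 in yak and 7.43 FPKM in pse. It was higher in vir eggs (log2 difference 3.25 ± 0.23, limma adjusted p = 3.5e-11).

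Proteins of nerve cells and membrane transport or signalling made up 15 members, of which 11 were higher in vir eggs and 1 lower, against 27.3% and 31.4% of all genes. Over all members 61.6% were higher and 7.55% lower. Of these 15, 7 were present in vir eggs only and 1, Prestin, in eggs of all species. The shares over all genes were 2.47% and 66.5%, and over all members 17.6% and 56.6%. tipE, a sodium channel accessory subunit, had 46.7 and 44.2 FPKM in vir eggs, against 0 to 1.06 FPKM in the other eggs (log2 difference 5.06 ± 0.71, limma adjusted p = 1.9e-06). Its mel embryos reached 22.8 FPKM, close to the lowest vir embryo at 26.2 FPKM. Among genes of patterning and embryo structure (9 members), slam, which drives the growth of membrane between nuclei at cellularization, averaged 234 ± 36.4 FPKM (SD, n = 5) in vir embryos, against 23.3 in mel, 39.3 in yak and 48.6 FPKM in pse. Its eggs were not called (log2 difference 1.11 ± 0.60, limma adjusted p = 0.121). slam varied widely within the other species, from 6.07 to 47.5 FPKM over mel embryos and from 12.7 to 87.9 FPKM over yak embryos. All were below the lowest vir embryo at 172 FPKM. ebi, a WD40 protein of a corepressor complex, averaged 206 ± 43 FPKM (SD, n = 5) in vir embryos, against 39.7 in mel, 25.5 in yak and 27.6 FPKM in pse. In eggs its log2 difference was 1.68 ± 0.20 (limma adjusted p = 1.9e-07). Act87E, a muscle-type actin, averaged 29.6 ± 9.09 FPKM (SD, n = 5), against 5.28 in mel, 1.19 in yak and 4.24 FPKM in pse. The 11 members known from the oocyte, RNA control or stress (such as plu, alphaTub67C, egl, rin, p53 and Dcr-2) were all present in eggs of all species. In vir eggs 8 were higher and 1, Dcr-2, was lower, against 27.3% and 31.4% of all genes and 61.6% and 7.55% of all members. Dcr-2 had 5.09 and 5.68 FPKM in vir eggs, against 38 and 36.2 in mel eggs and 8.39 and 7.43 FPKM in yak eggs. The pse egg, at 3.7 FPKM, lay below both vir eggs.

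Members were also counted in gene families listed by symbol, beside the 2.65% of the whole table that are members. The set held 1 of 24 cytochrome P450 genes (Cyp6d2), 1 of 35 mitochondrial ribosomal protein genes (mRpS25) and 1 of 19 blastoderm markers (slam). It held 0 of 55 cytoplasmic ribosomal protein genes, 16 glutathione S-transferase genes and 11 UDP-glycosyltransferase genes. It also held 0 of 14 cuticle genes with Cpr, Twdl, Lcp, Pcp or Edg symbols, 13 heat shock genes, 27 odorant and taste genes, 19 innate immunity genes, 13 tetraspanin genes and 2 trypsin or Jonah protease genes. These lists are not complete. The cuticle protein gene Ccp84Ab and Myd88, an adaptor of Toll signalling, are members that the lists leave out. Cytoplasmic ribosomal protein genes were higher in vir eggs for 36 of 55, with 3 lower, although none of them is a member. For cytochrome P450 genes the egg test gave 3 higher and 6 lower, and for mitochondrial ribosomal protein genes 10 higher and 11 lower. Of the other lists, blastoderm markers gave 0 higher and 0 lower (27.3% and 31.4% of all genes tested did). Without slam, the other 18 blastoderm markers together summed to only 0.405 to 1.33 FPKM in the eggs of each species. Such levels left little room for a call in either direction. Heat shock genes gave 1 and 4, innate immunity genes 1 and 8, glutathione S-transferase genes 3 and 6 and tetraspanins 2 and 5. Higher and lower counts were 1 and 3 for UDP-glycosyltransferases, 0 and 4 for cuticle genes, 6 and 4 for odorant and taste genes and 2 and 0 for proteases.

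Origin classes of mel genes came from an earlier allele-specific experiment and did not enter the rule. They are linked to it all the same, since the rule selects genes that are lower in mel embryos. In mel 85 members (53.5%) were maternal, 17 both maternal and zygotic and 24 zygotic, against 60.7% maternal over all genes. No class was given to 33 members (20.8%), against 9.78% of all genes. Of the 90 members found in eggs of all species 82 were maternal in mel, and of the 26 absent from eggs 11 were zygotic, 2 both and 13 had no class. The 28 members found in vir eggs only held 0 maternal genes of mel, 7 of both origins, 10 zygotic and 11 with no class. These groups are defined by levels in mel eggs among others, which by itself largely sets the mel class. Class shares over all genes with the same egg pattern are not given, so that these counts say nothing particular to the members. In vir, where the authors predicted classes from these same libraries, 107 members (67.3%) were maternal, 19 (11.9%) both and 33 (20.8%) zygotic, against 62.3%, 14.6% and 23.1% of all genes. Of the members, 8 that are zygotic in mel were maternal in vir, among them star1, Mmp1 and CG12947, and 2 that are maternal in mel were zygotic in vir. Such changes of class were not counted over all genes, so that these counts have no background.

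The sex of the embryo was tested within species, since the rule used the mean over both sexes. In vir, 2 members were higher in females (limma adjusted p under 0.05), against 2.82% of the 5856 genes tested, and 0 were higher in males, against 0.29% of genes. At an unadjusted p under 0.05 in limma, 10 were higher in females (7.89% of genes) and 4 in males (2.12%). In mel 3 members were higher in females (3.02% of genes) and 0 in males (0.461%), in yak 1 (2.8%) and 0 (0.29%), and in pse 6 (5.36%) and 2 (0.99%). Both called genes lie on Müller element A, which is X-linked in all of these species. CG4829 had 23.9, 31.8 and 30.5 FPKM in vir females, against 8.28 and 11 FPKM in vir males (log2 difference 1.48 ± 0.25, limma adjusted p = 0.00267). CG1826 (BTBD9) had 23.6, 23.5 and 21.5 FPKM in vir females, against 13.2 and 11.7 FPKM in vir males (log2 difference 0.83 ± 0.18, limma adjusted p = 0.015). For both, the sexes did not overlap. Both calls were lost without vir male 2, 1 remained without vir male 3, and leaving out vir female 1 gave 6 members higher in females. Over the 23 members on element A, 20 had a positive fitted difference in vir with a median of 0.21, against 0.33 over all genes of the element. The share of all genes of the element with a positive difference is not given, so that the count of 20 has no background. Off it the median was 0.02 over 136 members. No member had a sex difference in vir that differed from the mean of the other species (limma adjusted p under 0.05, 0.29% of genes higher and 0.12% lower), with 10 higher (3.47% of genes) and 5 lower (2.78%) at an unadjusted p under 0.05. CG14219, for which both female and male vir embryos include values under 1 FPKM, did not pass (log2 difference 2.96 ± 0.82, limma adjusted p = 0.0567).

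**Figure D5:**
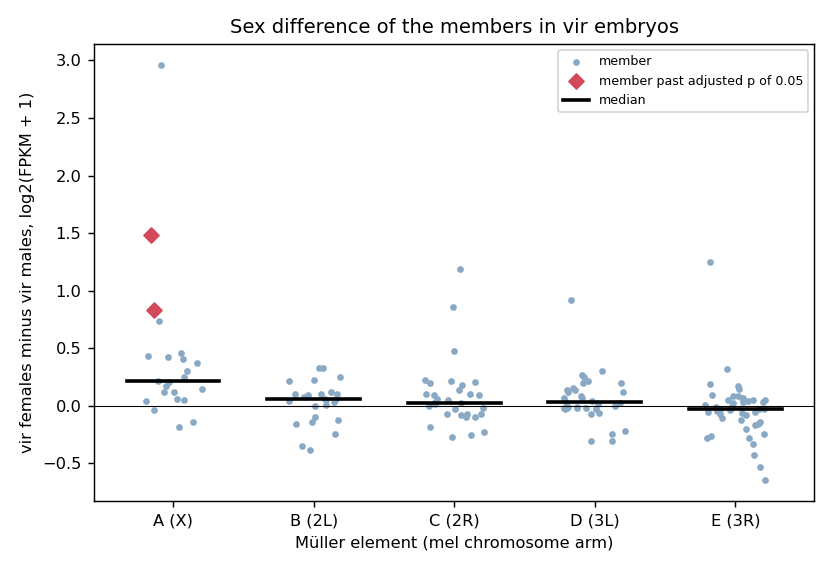
Fitted difference between vir females and vir males on the log2(FPKM + 1) scale (vertical) for the 159 members, by Müller element with the mel chromosome arm in brackets (horizontal). Bars are medians and diamonds are the 2 members past the adjusted p of 0.05, CG4829 and CG1826, both on element A, where 20 of 23 members are above 0. On this element the median was 0.21 over members and 0.33 over all genes.

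Members were spread over the genome, with 23 on Müller element A, 25 on B, 31 on C, 34 on D and 46 on E. These are 14.5%, 15.7%, 19.5%, 21.4% and 28.9% of the set, against 16.9%, 18.8%, 20.2%, 18.8% and 25.3% of all genes. In both mel and vir coordinates mthl14 overlapped DIP2 and pncr011:3L overlapped CG6272, so that, as counting by strand is not stated, reads of each pair may not be told apart. CG15213 and CG10672 lay 7219 bases apart in mel and 7094 bases apart in vir. In mel 43 members (27%) overlapped another gene of the table, against 23% of all genes, and in vir 40 (25.2%) against 20.7%. Of the 46 members named by rule, 11 overlapped another gene in mel or vir, among them Adh, inaD, CG5508, CG9849, Spat, Vps33B and mRpS25. For Vps33B, Spat, plu and salt the overlap was in vir only, and for ppk19 in mel only. Levels of members of multigene families such as Act87E, alphaTub67C and Ccp84Ab depend on how shared reads were divided. The span of a gene in vir over that in mel had a median of 1.07 for members and 0.984 for all genes, and it was under 50% for 9 members (5.66%), against 6.69% of all genes.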

How the data were processed

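Single embryos and unfertilized eggs were sequenced as TruSeq libraries made from Trizol RNA. The authors trimmed reads by quality, mapped them with Bowtie2 to the transcripts of each species (FlyBase release 5.39 for mel, annotations of an earlier study for the others), reporting all mappings, ran eXpress to estimate transcript levels, and added these up over the transcripts of a gene. The deposited values are log10(FPKM + 1), which the authors scaled so that the 75th percentile of genes on autosomal Müller elements was equal in all libraries. Here these log10 values were turned back into FPKM. The depth of the libraries is unknown from such values, so that no counting intervals are given. Reads shared by paralogs were divided in the estimation, and counting by strand is not stated in the sources used here. Of 31 libraries, vir male 1 and pse female 3 were not used except where named, since the study set them aside for poor data quality. The authors' means, 96 columns over 6 tables, were not used.

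Eggs were compared with limma 3.58.1 (R 4.3.3) on log2(FPKM + 1) in 1 fit of 29 libraries in 12 groups, with the trend option, over genes with a mean above 1 FPKM in at least 1 group, and the sexes in a fit of 22 embryos in 8 groups. All tests are two-sided with Benjamini-Hochberg adjustment over all genes tested and a threshold of 0.05, and p-values measure the spread between single embryos and eggs. The difference in eggs is vir minus the mean of mel, yak and pse, and SDs are over embryos. The scripts were tested on simulated data. The other tools were Python 3.11.15, numpy 2.4.6, pandas 2.3.3 and matplotlib 3.10.9. Alternatives were the other 5 normalizations, pseudocounts of 0.1 and 10, other filters and thresholds of the rule, other sets of samples, a replicate block and leaving out each library.

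The members and lists were chosen with earlier results of these data known. Named by rule were the 8 members with the largest ratio, the 8 with the highest vir embryo mean, the 6 with the largest egg difference, the 6 highest with a vir egg mean under 1 FPKM, up to 4 lower in vir eggs, up to 6 with a called sex difference, the 3 nearest the ratio on either side, the 3 most variable over vir embryos, the 15 highest with a gene name and members of listed families. Any other gene named, and the role groups, were chosen after their values were seen.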

Additional observations from a re-analysis of the deposited data

How the results depend on the processing

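The count of members higher in vir eggs (98) lay between 92 and 122 and the count lower (12) between 8 and 14 under all alternatives. The median difference of members in eggs (0.89) was 0.78 with the 95th percentile, 0.75 with no normalization after eXpress, 1.07 with TMM, 1.18 with quantile and 1.45 with median normalization, 1.13 and 0.52 with 0.1 and 10 FPKM added before the logarithm, and 1.22 in a fit of the 7 eggs alone, where 133 members were tested. Leaving out 1 egg gave 0.86 to 0.94, the last without vir egg 2. Median normalization moved the median of all genes to 0.24, and the members less all genes were at 1.21 there, within a range of 0.52 to 1.30 over the alternatives. With it 2630 of all genes were higher and 1187 lower, against 1634 and 1877. The rule gave 245 genes with a ratio of 3 and 81 with a ratio of 8. The cause of these shifts was not tested.

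For the sex difference in vir, the 2 members higher in females were 0 with 0.1 FPKM added, 10 with 10 FPKM added, 1 with quantile normalization and 4 with the removed libraries added. The 0 members higher in males were 4 with 10 FPKM added and 1 with the removed libraries added. Leaving out 1 vir embryo gave 0 to 6 members higher in females and 0 to 1 higher in males. Of 28 single gene differences 24 kept their call under every alternative, and IFa, ppk19, CG1826 and CG4829 lost it under 16 of theirs in all, with 0 reversed.

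Libraries with the same number did not all deviate together (correlations of -0.25 to 0.12 for eggs and -0.17 to 0.47 for embryos), so the numbers were not taken as pairs. With a replicate block 98 members were higher and 11 lower in vir eggs, and 3 were higher in vir females. Depth is unknown, vir had 2 eggs and pse 1, and a level listed at 0 may be a failed estimate.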
